A study of Homo sapiens with 112 samples.

Results

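Expression of 9 listed genes of the prostate cancer cell line LAPC4 was followed across all treatments: HPGD, C1orf116, HOMER2, ARHGEF26, P2RY1, LRRC31, CA10, PCDH19 and RILPL2. They are the table entries, of 58684 gene symbols, that carry these names, and the names were chosen by measured values, because their LAPC4 log2 fold changes with the androgen R1881, or with the antagonist darolutamide added to it, were large or graded by dose outside the kallikreins. The LAPC4 treatment values below are therefore descriptions without a test, whereas the second line, VCaP, was tested. Time in the solvent alone was tested too, but in LAPC4 with libraries that also enter the choice. Among 18204 genes tested in LAPC4, the absolute log2 fold change with R1881 at 22 h ranked 11 for HPGD, 18 for C1orf116, 38 for P2RY1, 46 for HOMER2, 96 for ARHGEF26, 223 for LRRC31, 252 for CA10 and 294 for PCDH19. RILPL2 ranked 7341, so the name of a strong androgen response did not hold for it.

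The RNA-seq series held 112 libraries, 57 of LAPC4 and 55 of VCaP, with 12188455 to 25201678 counted reads each. LAPC4 was grown from a prostate cancer metastasis by way of a mouse xenograft, and VCaP comes from a vertebral metastasis and carries the TMPRSS2-ERG fusion. All cells were starved in medium with charcoal-stripped serum and then kept for 8 or 22 h with the solvent DMSO, with R1881 at 1 nM, or with the same R1881 and darolutamide at 0.5 µM or 2 µM. LAPC4 had 10 libraries with DMSO, 10 with R1881, 5 with the lower and 5 with the higher dose at 8 h, and 7, 10, 5 and 5 at 22 h. VCaP had 10, 10, 4 and 5 at 8 h, and 8, 9, 4 and 5 at 22 h. No group held darolutamide without R1881. The study's methods describe biological replicates, but fewer per condition than the larger of these groups hold, and the labels do not say which libraries came from separate cultures, so p-values measure only the spread between these libraries.

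The epithelial markers were as the labels say. KRT8, KRT18, HOXB13, EPCAM and CDH1 all had a median above 1 CPM (a gene's reads scaled by the library's total, with TMM factors set within each line) in both lines, while the summed basal markers KRT5, KRT14 and TP63 stayed at or below 2.52 CPM and the leukocyte markers at or below 0.401 CPM. ERG ran from 117 to 1067 CPM in VCaP and from 0 to 0.0539 CPM in LAPC4. The fibroblast list (COL1A1, COL1A2, DCN and LUM) was not at the floor, with summed levels at 22 h of 25.8 to 29.5 CPM in DMSO and 0.6302 to 1.61 CPM with R1881 in VCaP, and of 4.43 to 6.01 and 2.05 to 3.23 CPM in LAPC4. LUM was its 1 gene with a median above 1 CPM in either line, and COL1A2 had a median of 0 in both. The summed endothelial markers PECAM1, VWF and CDH5 reached 3.32 CPM in VCaP and 3.46 CPM in LAPC4, with VWF above a median of 1 CPM in LAPC4 and CDH5 at a median of 0 in both lines. The fibroblast sum was thus lower with R1881 in both lines at 22 h. In VCaP it was lower at 8 h too, with 2.40 to 4.85 CPM against 23.6 to 30.8 CPM in DMSO. The endothelial median at 22 h went with R1881 from 0.538 to 2.95 CPM in VCaP and from 1.13 to 2.18 CPM in LAPC4. The part of these sums in the results was not tested.

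Androgens such as testosterone or the synthetic R1881 are steroid hormones that act in prostate cells through response elements in enhancers and promoters, and the transcription of some genes rises while that of others falls. Darolutamide is an antiandrogen drug. The listed genes have unlike jobs. HPGD oxidises and thereby inactivates prostaglandins, C1orf116 encodes the protein also known as specifically androgen-regulated gene protein, HOMER2 is a scaffold that links glutamate receptors and inositol trisphosphate receptors, ARHGEF26 activates the small GTPase RhoG, and P2RY1 is a G protein-coupled receptor for ADP. PCDH19 is an adhesion protein of the non-clustered protocadherins, CA10 is a relative of the carbonic anhydrases without enzyme activity, LRRC31 is a leucine-rich repeat protein, and RILPL2 binds phosphorylated Rab GTPases.

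The genes are all protein-coding (GRCh38, GENCODE 44). HPGD lies on chromosome 4 from 174490175 to 174523154, C1orf116 on chromosome 1 from 207018522 to 207032756, HOMER2 on chromosome 15 from 82836946 to 82986153, RILPL2 on chromosome 12 from 123415039 to 123436684, CA10 on chromosome 17 from 51630313 to 52160017 and PCDH19 on chromosome X from 100291644 to 100410273, each on the minus strand. P2RY1 lies on chromosome 3 from 152835131 to 152841439 and ARHGEF26 on chromosome 3 from 154121003 to 154257827, both on the plus strand, and LRRC31 on chromosome 3 from 169839172 to 169869935 on the minus strand. ARHGEF26 overlaps the antisense gene ARHGEF26-AS1, and the strand setting of the counting is not given in the sources used here, so reads of these genes may not be fully separated.

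Promoters are shown for a gene that R1881 raised in VCaP and that was higher with it in LAPC4 (C1orf116), for the gene whose sign was unlike in the lines (P2RY1), and for the gene with the largest fold change in VCaP (PCDH19). Each is the 250 bases before the annotated start, from RefSeq on GRCh38.p14 and read on the strand of the gene: C1orf116 at chr1:207032757-207033006 on the minus strand, P2RY1 at chr3:152834881-152835130 on the plus strand and PCDH19 at chrX:100410274-100410523 on the minus strand. No letters are in capitals because no searched motif was found in them.
C1orf116: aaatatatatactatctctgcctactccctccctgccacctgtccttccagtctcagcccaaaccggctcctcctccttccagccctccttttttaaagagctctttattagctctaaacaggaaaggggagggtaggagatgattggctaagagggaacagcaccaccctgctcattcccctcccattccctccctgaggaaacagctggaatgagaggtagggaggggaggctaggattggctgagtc
P2RY1: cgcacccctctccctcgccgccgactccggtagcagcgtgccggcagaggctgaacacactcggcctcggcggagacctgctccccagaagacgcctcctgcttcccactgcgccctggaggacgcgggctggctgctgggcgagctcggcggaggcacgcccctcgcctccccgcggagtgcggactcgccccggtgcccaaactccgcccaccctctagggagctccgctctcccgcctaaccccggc
PCDH19: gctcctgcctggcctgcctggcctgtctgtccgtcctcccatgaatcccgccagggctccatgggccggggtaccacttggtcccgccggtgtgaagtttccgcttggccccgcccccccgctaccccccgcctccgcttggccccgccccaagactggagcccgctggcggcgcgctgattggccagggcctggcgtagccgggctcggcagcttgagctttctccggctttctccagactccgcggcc
All 9 genes matched a RefSeq promoter, and motifs were searched on both strands from 250 bases before to 50 after the start. The half-site AGAACA of steroid response elements was in 14.9% of 27305 promoters and in 0 of the 9, and the forkhead letters TGTTTAC in 3.41% of all and in 0 of the 9. Within 10 kb of the start, the palindrome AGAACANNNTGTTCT was near 0.344% of all starts and 0 of the 9. The shorter AGAACANNNTGT, which every such palindrome also holds, was near 22.4% of all starts and near 1 of the 9, ARHGEF26. Its matches are given with the motif letters in capitals, at chr3:154122999-154123013 on the plus strand, 2.0 kb from the start, and at chr3:154128066-154128080 on the minus strand, 7.07 kb from it.
ARHGEF26, first match: AGAACAgaaTGTccc
ARHGEF26, second match: AGAACAgacTGTcag

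In LAPC4, 5 genes were higher with R1881 at both times, and in each the lowest R1881 library lay above the highest DMSO library. Such a gap was found for 2.3% of all genes tested at 22 h and 0.599% at 8 h, though the choice of the genes rested on these contrasts. HPGD in DMSO at 22 h ran from 6.07 to 7.71 CPM with a median of 6.32 (6.71 ± 0.633, SD, n = 7), and with R1881 from 32.99 to 42.4 CPM with a median of 38.3 (37.9 ± 2.68, n = 10). The log2 fold change was 2.50 with a standard error (SE) of 0.0635, or 5.64-fold. At 8 h HPGD stood at 5.47 ± 0.585 CPM in DMSO and 13.2 ± 0.794 CPM with R1881, or 1.27 (SE 0.0574) on the log2 scale. HPGD thus had the largest 22 h difference of the 9 genes.

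C1orf116 went from 142.4 ± 5.49 to 344.7 ± 12.3 CPM at 8 h and from 161.9 ± 8.14 to 517.7 ± 13.2 CPM at 22 h, log2 fold changes of 1.28 (SE 0.0234) and 1.68 (SE 0.0268). Its 22 h libraries ran from 147.9 to 170.1 CPM in DMSO (median 164.6) and from 488.1 to 531.6 CPM with R1881 (median 520.3). At 8 h C1orf116 and HPGD were about equally far from DMSO on the log2 scale, and at 22 h HPGD was farther. P2RY1 had much of its 22 h difference by 8 h, with 7.18 ± 0.6397 and 14.6 ± 0.693 CPM at 8 h and 6.803 ± 0.958 and 17.5 ± 0.915 CPM at 22 h, or 1.03 (SE 0.0547) and 1.36 (SE 0.0615). HOMER2 differed by 0.53 (SE 0.0327) at 8 h and by 1.28 (SE 0.0366) at 22 h, where it went from 20.7 ± 0.617 to 50.3 ± 2.13 CPM. Its rank by absolute log2 fold change thus went from 259 at 8 h to 46 at 22 h. ARHGEF26 was at 62.5 ± 2.39 CPM in DMSO and 125.2 ± 4.14 CPM with R1881 at 22 h, or 1.00 (SE 0.02802), and differed by 0.62 (SE 0.0249) at 8 h. The mean level of ARHGEF26-AS1 was 5.35 CPM in DMSO and 4.58 CPM with R1881 at 22 h, on the lower side while ARHGEF26 was on the higher side.

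**Figure D1:**
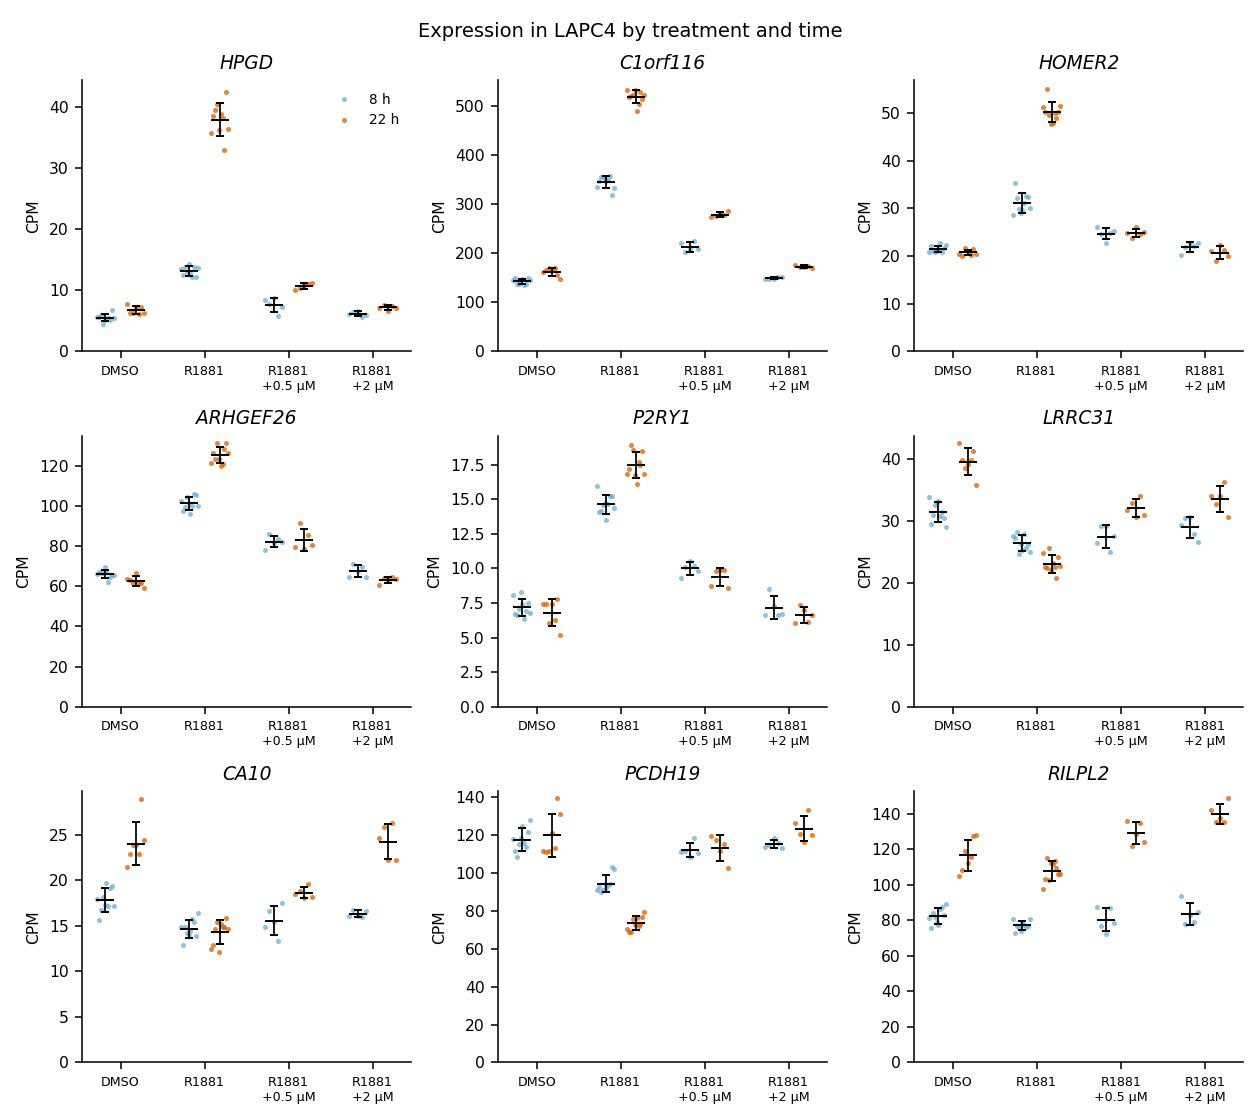
Expression of the 9 genes in LAPC4, 1 panel per gene, in CPM. Each point is 1 library at 8 h or 22 h and the bars are the mean ± SD of the group; HPGD at 22 h has a mean of 6.71 CPM in DMSO, 37.9 CPM with R1881 and 7.16 CPM with 2 µM darolutamide.

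At 22 h 3 genes were lower with R1881 without overlap, a gap found for 1.54% of all genes tested. PCDH19 in DMSO ran from 111.0 to 139.5 CPM with a median of 113.0 (119.8 ± 11.4), and with R1881 from 68.7 to 79.5 CPM with a median of 73.01 (73.5 ± 3.65). Its log2 fold change was -0.71 (SE 0.0388) at 22 h and -0.32 (SE 0.0355) at 8 h. DMSO replicates 6 and 7 held the highest PCDH19 values of the 22 h controls, 139.5 and 131.2 CPM, and with control replicates from 6 upward alone the 22 h difference was -0.84. LRRC31 was at 39.5 ± 2.16 CPM in DMSO and 23.1 ± 1.41 CPM with R1881 at 22 h, or -0.78 (SE 0.0403), and CA10 at 24.02 ± 2.36 and 14.3 ± 1.31 CPM, or -0.75 (SE 0.05499).

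At 8 h LRRC31 and CA10 differed by -0.25 (SE 0.0372) and -0.28 (SE 0.0511), and 2 genes, LRRC31 and PCDH19, had R1881 libraries below all DMSO libraries, as did 0.126% of all genes. With R1881 CA10 was at 14.6 ± 1.02 CPM at 8 h and 14.3 ± 1.31 CPM at 22 h, while in DMSO it was at 17.8 ± 1.28 and 24.02 ± 2.36 CPM. LRRC31 was at 26.4 ± 1.27 and 23.1 ± 1.41 CPM with R1881 and at 31.4 ± 1.63 and 39.5 ± 2.16 CPM in DMSO. The wider gap of both genes at 22 h thus came mostly with a higher DMSO level. In bulk RNA, fewer expressing cells and less RNA per cell cannot be told apart.

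Time in DMSO alone was tested with edgeR's quasi-likelihood test and Benjamini-Hochberg adjustment over the 18204 genes. In LAPC4 5 of the 9 genes rose from 8 to 22 h and 1 fell, beside 22.1% of all genes called. RILPL2 rose by 0.50 (SE 0.0401, adjusted p = 5.78e-15), CA10 by 0.43 (SE 0.0545, adjusted p = 8.66e-09) and LRRC31 by 0.33 (SE 0.04001, adjusted p = 2.53e-09). These 3 were the only ones of the 9 also called with control replicates from 6 upward alone. That is a subset of the same libraries, so it is no separate support. HPGD rose by 0.30 (adjusted p = 0.000391) and C1orf116 by 0.18 (adjusted p = 6.79e-08), with adjusted p of 0.156 and 0.215 in those replicates. ARHGEF26 fell by 0.08 (adjusted p = 0.0296), a call lost in 6 of 9 alternatives with adjusted p from 0.0792 to 0.242. HOMER2 (-0.05, adjusted p = 0.342), P2RY1 (-0.08, adjusted p = 0.394) and PCDH19 (0.03, adjusted p = 0.666) missed the threshold. The same DMSO libraries enter the contrasts by which the genes were picked, so these tests are not independent of that choice. A gene picked for a lower R1881 than DMSO level at 22 h is favoured by high DMSO values there, which also make a rise.

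With 2 µM darolutamide, all 5 of the genes that were higher with R1881 lay near the DMSO level in LAPC4, and 5 of 5 lay below every R1881 library at 22 h, as did 2.25% of all genes. At 22 h the high-dose libraries of HPGD held 7.08, 7.602, 6.64, 7.43 and 7.05 CPM, within the DMSO range. Those of C1orf116 held 174.9, 172.4, 171.7, 174.4 and 168.6 CPM, the lowest of them inside the DMSO range and the others just above it. Those of P2RY1 held 6.08, 7.34, 6.97, 6.12 and 6.65 CPM, inside the DMSO range. Reversal was expressed as the percentage of the log2 distance from the R1881 mean to the DMSO mean that a darolutamide library had covered, so that 0 is the R1881 level and 100 the DMSO level. At 2 µM and 22 h it was 96.2 ± 2.996% for HPGD, 94.5 ± 1.25% for C1orf116, 100.2 ± 7.32% for HOMER2, 98.3 ± 3.44% for ARHGEF26 and 102.0 ± 8.58% for P2RY1 (mean ± SD, n = 5).

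The lower dose left part of each difference in place. The partial reversals given below hold for the log2 scale and differ on linear CPM. With 0.5 µM at 22 h the C1orf116 libraries held 272.7, 274.4, 281.0, 277.1 and 284.5 CPM, a reversal of 53.5 ± 1.49%. HPGD held 9.98, 10.4, 10.9, 10.9 and 11.1 CPM, a reversal of 73.2 ± 2.52%. P2RY1 held 8.72, 9.803, 9.88, 9.905 and 8.61 CPM, a reversal of 65.6 ± 7.46%. All 5 genes lay between the R1881 and the DMSO libraries without touching either, with 79.5 ± 3.81% for HOMER2 and 59.3 ± 9.11% for ARHGEF26. Groups of this kind lay above DMSO for 0.566% of all genes and below R1881 for 1.88%. Between the doses 5 genes were lower at 2 µM without overlap (all genes, 0.621%), by 0.69 (SE 0.0328) for C1orf116, 0.57 (SE 0.0801) for HPGD, 0.49 (SE 0.0796) for P2RY1, 0.39 (SE 0.0354) for ARHGEF26 and 0.26 (SE 0.0466) for HOMER2 on the log2 scale.

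At 8 h C1orf116 held 220.0, 201.0, 207.5, 225.2 and 207.9 CPM at 0.5 µM and 147.4, 148.0, 147.2, 151.7 and 151.1 CPM at 2 µM, or reversals of 54.9 ± 5.28% and 94.8 ± 1.61%. P2RY1 was reversed by 53.2 ± 6.55% and 100.7 ± 15.1%, and ARHGEF26 by 48.8 ± 8.09% and 94.6 ± 9.72%. In these 3 genes the doses did not overlap at 8 h (all genes, 0.264%). The doses overlapped for HPGD, with 63.7 ± 18.3% and 87.1 ± 7.16%, and for HOMER2, with 62.5 ± 13.6% and 94.2 ± 13.4%.

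Of the genes that were lower with R1881, LRRC31, CA10 and PCDH19 lay above every R1881 library at 22 h with either dose. The share of all genes that did so is not given here. The genes differed in the effect of dose and in how far they reached. At 8 h and 2 µM the LAPC4 reversals were 52.5 ± 34.0% for LRRC31, 55.6 ± 11.4% for CA10 and 91.8 ± 7.87% for PCDH19. CA10 was graded by dose at 22 h, with 18.5, 18.8, 18.04, 19.6 and 18.2 CPM at 0.5 µM and 24.6, 25.9, 22.3, 26.3 and 22.2 CPM at 2 µM, or reversals of 51.7 ± 6.23% and 102.1 ± 15.5%. It was the 1 listed gene that was higher at 2 µM than at 0.5 µM without overlap (all genes, 0.566%). Against control replicates from 6 upward alone, the 2 µM group of CA10 lay -0.14 from DMSO instead of 0.01 on the log2 scale. PCDH19 held 119.4, 117.6, 111.4, 115.2 and 102.4 CPM at 0.5 µM and 126.2, 120.4, 116.4, 133.2 and 120.2 CPM at 2 µM, or 88.8 ± 12.6% and 106.4 ± 10.8%, and its doses overlapped. With those control replicates alone the PCDH19 difference from DMSO turned from 0.04 to -0.14 at 2 µM and went from -0.08 to -0.26 at 0.5 µM. That of C1orf116 at 2 µM went from 0.09 to 0.19.

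LRRC31 stayed short of the DMSO mean at both doses at 22 h. Its libraries held 31.8, 32.9, 30.6, 34.05 and 30.9 CPM at 0.5 µM and 33.9, 32.7, 34.02, 36.3 and 30.6 CPM at 2 µM, against 35.7 to 42.6 CPM in DMSO, with reversals of 61.1 ± 8.297% and 69.3 ± 11.6%. At 2 µM 1 library reached into the DMSO range. Against DMSO the 2 µM group differed by -0.24 (SE 0.04799) and the 0.5 µM group by -0.30 (SE 0.0482).

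**Figure D2:**
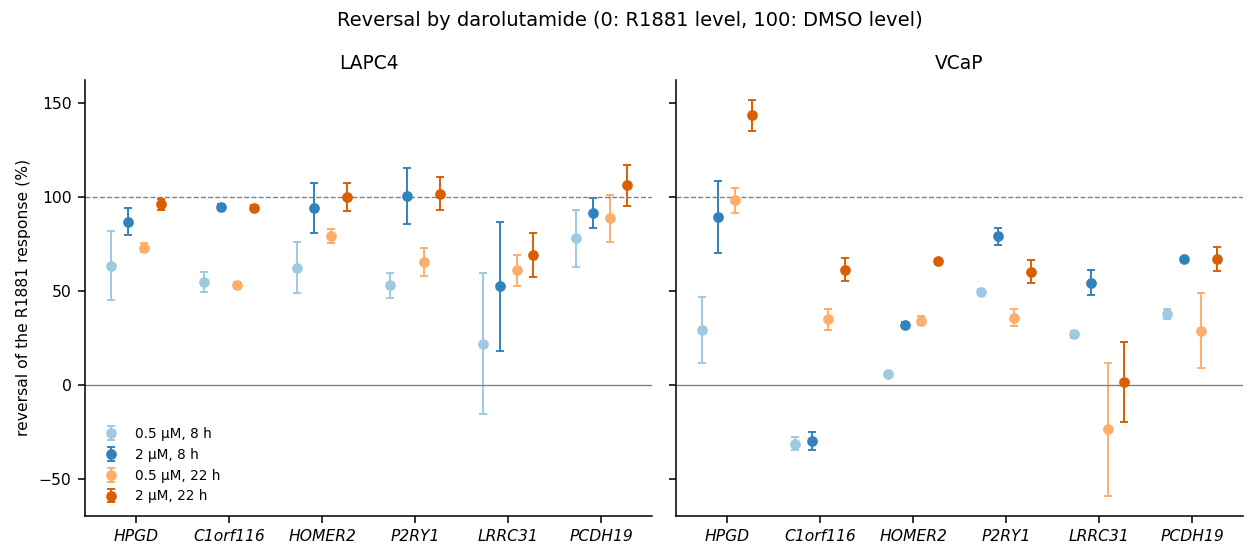
Reversal of the R1881 difference by darolutamide in percent, by gene, dose and time, for 6 genes in LAPC4 and VCaP; CA10, not tested in VCaP, and ARHGEF26 and RILPL2, whose R1881 and DMSO means were close in a line, are not drawn. Points are means and bars are SD over 4 or 5 libraries, and 0 and 100 are the R1881 and DMSO means. At 2 µM and 22 h the LAPC4 means drawn run from 69.3 for LRRC31 to 106.4 for PCDH19. VCaP means run from 1.900 for LRRC31 to 143.5 for HPGD. PCDH19 in VCaP is measured from R1881 libraries with 0 to 7 reads at 22 h and 1 to 11 at 8 h.

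RILPL2 stood apart from the other 8 genes. In LAPC4 at 22 h it held 104.9, 108.3, 119.1, 112.5, 115.5, 127.7, 128.0 CPM in the DMSO libraries (116.6 ± 8.98) and from 97.9 to 115.1 CPM with R1881 (median 107.9, 107.8 ± 5.52). These groups overlapped, and the log2 difference was -0.11 (SE 0.0401). With 2 µM darolutamide it held 142.0, 135.4, 137.9, 135.4 and 148.8 CPM, above every DMSO and every R1881 library, and with 0.5 µM 136.0, 121.9, 128.6, 135.1 and 124.1 CPM, above every R1881 library. It was the 1 listed gene whose 2 µM group lay above DMSO without overlap at 22 h (all genes, 0.198%), by 0.26 (SE 0.0474) on the log2 scale. With control replicates from 6 upward alone, whose 22 h libraries held the highest RILPL2 of the group (127.7 and 128.0 CPM), it was 0.13, and the R1881 difference was -0.23. At 8 h RILPL2 was at 82.5 ± 4.45 CPM in DMSO, 77.2 ± 2.64 with R1881, 80.5 ± 6.64 with 0.5 µM and 83.8 ± 6.24 with 2 µM, with overlap between DMSO and each. No reversal is given for it, since its R1881 and DMSO means were close.

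VCaP expressed these genes at other levels before any androgen was added. The lines were compared in 1 fit of both over 20941 genes, with CPM scaled by the factors of that fit, which are not those of the CPM given elsewhere. The LAPC4 DMSO libraries also enter the contrasts that chose the genes, so the differences are given without a test. In DMSO at 22 h LAPC4 had less HPGD, with 6.31 ± 0.624 CPM against 129.1 ± 9.35 CPM in VCaP, a log2 difference of -4.36 (SE 0.0647), or 20.5-fold lower. It also had less HOMER2 (-3.33, SE 0.0384), P2RY1 (-3.14, SE 0.0661), C1orf116 (-1.84, SE 0.0337) and ARHGEF26 (-1.71, SE 0.0368).

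LAPC4 had more of the other 4 genes. PCDH19 differed by 4.29 (SE 0.0722), with 112.5 ± 10.9 against 5.74 ± 0.274 CPM on the same scale. RILPL2 differed by 3.80 (SE 0.0487), with 109.4 ± 8.39 against 7.902 ± 0.555 CPM, and LRRC31 by 2.63 (SE 0.0848), with 37.1 ± 2.15 against 5.98 ± 0.647 CPM. CA10 had 0 to 5 reads in every VCaP library and at least 157 in every LAPC4 library, so its difference is given by its reads. At 8 h the differences had the same signs for all 9 genes. DESeq2's size factors shifted the median of all genes by -0.10 on the log2 scale at 22 h, less than any of these differences.

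Levels per kilobase of exon allow a rough comparison of genes. The length used is that of all annotated exons of a gene, not of the transcript expressed. LAPC4 in DMSO at 22 h had 66.5 CPM per kb of RILPL2, 29.4 of C1orf116, 12.6 of LRRC31, 12.3 of PCDH19, 11.4 of ARHGEF26 and 5.41 of CA10. HOMER2 followed at 1.41, HPGD at 1.21 and P2RY1 at 1.08 CPM per kb. The place of HOMER2 depends on its length of 14.685 kb, the longest of the listed genes. With R1881 C1orf116 reached 94.1 and HPGD 6.86 CPM per kb.

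R1881 changed 8 of the 8 listed genes tested in VCaP at 22 h and 8 at 8 h, 4 upward and 4 downward each time (edgeR, adjusted over 19266 genes). This line responded broadly, with 77.4% of all genes called at 22 h and 66.9% at 8 h, so these counts are near the background. HOMER2 rose most, from 179.8 ± 4.64 CPM (n = 8, from 173.2 to 186.0, median 179.9) to 674.0 ± 27.04 CPM (n = 9, from 638.2 to 703.5, median 682.8) at 22 h, a log2 fold change of 1.91 (SE 0.0314, adjusted p = 1.34e-48 by edgeR). HPGD rose from 118.4 ± 8.93 to 275.4 ± 21.2 CPM, or 1.22 (SE 0.0514, adjusted p = 8.28e-29), and C1orf116 from 499.8 ± 29.1 to 956.8 ± 22.7 CPM, or 0.94 (SE 0.0319, adjusted p = 2.85e-33). The R1881 libraries of these 3 genes did not overlap DMSO (all genes, 23.4%).

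The R1881 effect in LAPC4 minus that in VCaP at 22 h was 1.24 (SE 0.0781) for HPGD, 0.70 (SE 0.0432) for C1orf116 and -0.67 (SE 0.0469) for HOMER2, given without a test because the LAPC4 part chose the genes. HPGD and C1orf116 thus had the larger log2 difference in LAPC4, and HOMER2 in VCaP. ARHGEF26 in VCaP at 22 h went from 175.7 ± 8.64 to 185.5 ± 10.1 CPM, or 0.08 (SE 0.0353, adjusted p = 0.0416), a call lost in 5 of 9 alternatives with adjusted p from 0.0755 to 0.760. At 8 h it rose from 159.1 ± 5.51 to 193.3 ± 14.2 CPM, or 0.28 (SE 0.0324, adjusted p = 3.47e-11), while the mean of ARHGEF26-AS1 went from 6.32 to 1.35 CPM.

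P2RY1, the ADP receptor gene, went in opposite directions in the lines. In VCaP at 22 h it ran from 48.5 to 55.3 CPM in DMSO (median 51.4, 51.7 ± 2.698) and from 12.99 to 16.8 CPM with R1881 (median 14.01, 14.8 ± 1.395), a fall of 1.81 (SE 0.0546, adjusted p = 9.04e-36). At 8 h it fell from 51.8 ± 4.11 to 6.78 ± 0.6902 CPM, by 2.93 (SE 0.0548, adjusted p = 7.09e-46). The fall was deeper at 8 h, by 1.12 on the log2 scale (SE 0.07700, adjusted p = 6.51e-19). In LAPC4 all R1881 libraries of P2RY1 lay above all DMSO libraries at both times, and in VCaP all lay below, a pattern found for 0.513% of the 16578 genes tested in both lines at 22 h and 0.109% at 8 h. The LAPC4 part of this pattern went with the choice of P2RY1, so these shares do not measure how rare the pattern is. Of 18204 genes tested in LAPC4, 418 had that gap upward at 22 h and 109 at 8 h. The full pattern was found in 85 and 18 genes. On the scale of the fit of both lines, the 22 h means of P2RY1 were 16.2 ± 0.899 CPM in LAPC4 and 16.3 ± 1.47 CPM in VCaP with R1881, against 6.39 ± 0.923 and 56.3 ± 2.85 CPM in DMSO. At 8 h the means with R1881 were 13.5 ± 0.702 CPM in LAPC4 and 7.24 ± 0.721 CPM in VCaP, so the lines were close at 22 h only.

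**Figure D3:**
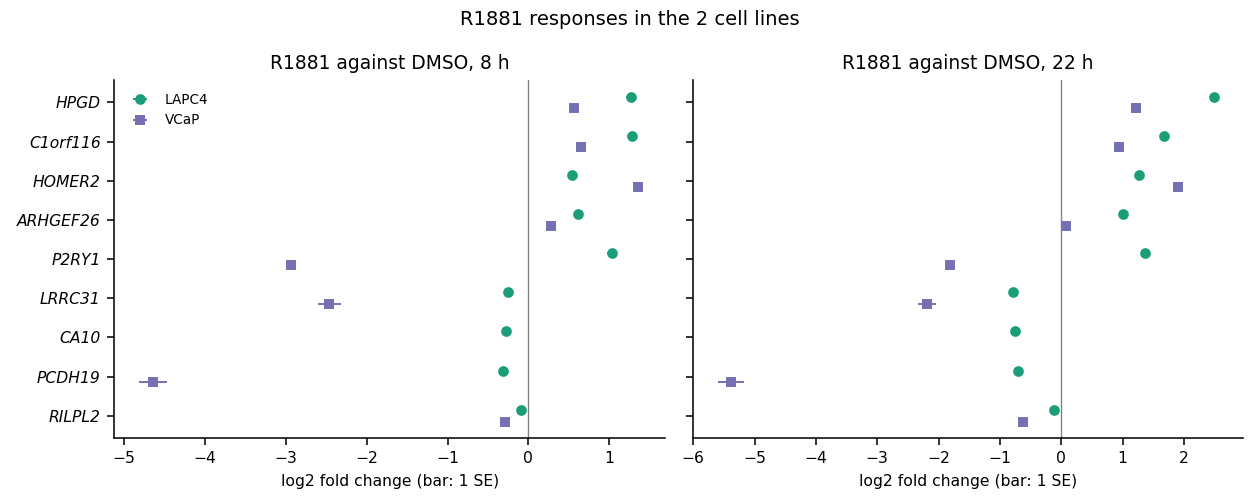
Log2 fold change of each gene with R1881 against DMSO at 8 h and 22 h, in LAPC4 (circles) and VCaP (squares), with bars of 1 SE. P2RY1 is above 0 in LAPC4 (1.36 at 22 h) and below 0 in VCaP (-1.81), PCDH19 has the largest VCaP fall (-5.38), and CA10 has no VCaP point because it did not pass the count filter.

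The genes that were lower with R1881 in LAPC4 and could be tested in VCaP fell there too, from a low base. PCDH19 fell from 5.27 ± 0.264 CPM (4.89 to 5.73) to 0.115 ± 0.123 CPM (0 to 0.365) at 22 h, or -5.38 (SE 0.218, adjusted p = 1.09e-29), with 64 to 121 reads in a DMSO library and 0 to 7 in an R1881 library. At 8 h it fell by 4.64 (SE 0.168, adjusted p = 5.99e-32). LRRC31 fell from 5.48 ± 0.587 to 1.197 ± 0.283 CPM at 22 h, or -2.19 (SE 0.146, adjusted p = 5.03e-20), and by 2.46 at 8 h (SE 0.141, adjusted p = 1.16e-22). In both genes no R1881 library reached a DMSO library. The share of all genes lower without overlap is not given here, and 77.4% of all genes were called with R1881 at 22 h. RILPL2 fell from 7.25 ± 0.511 to 4.704 ± 0.532 CPM at 22 h, or -0.62 (SE 0.0638, adjusted p = 6.18e-13), and by 0.29 at 8 h (SE 0.0564, adjusted p = 1.03e-05). A change of CA10 in VCaP was not detectable at 0 to 5 reads a library.

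**Figure D4:**
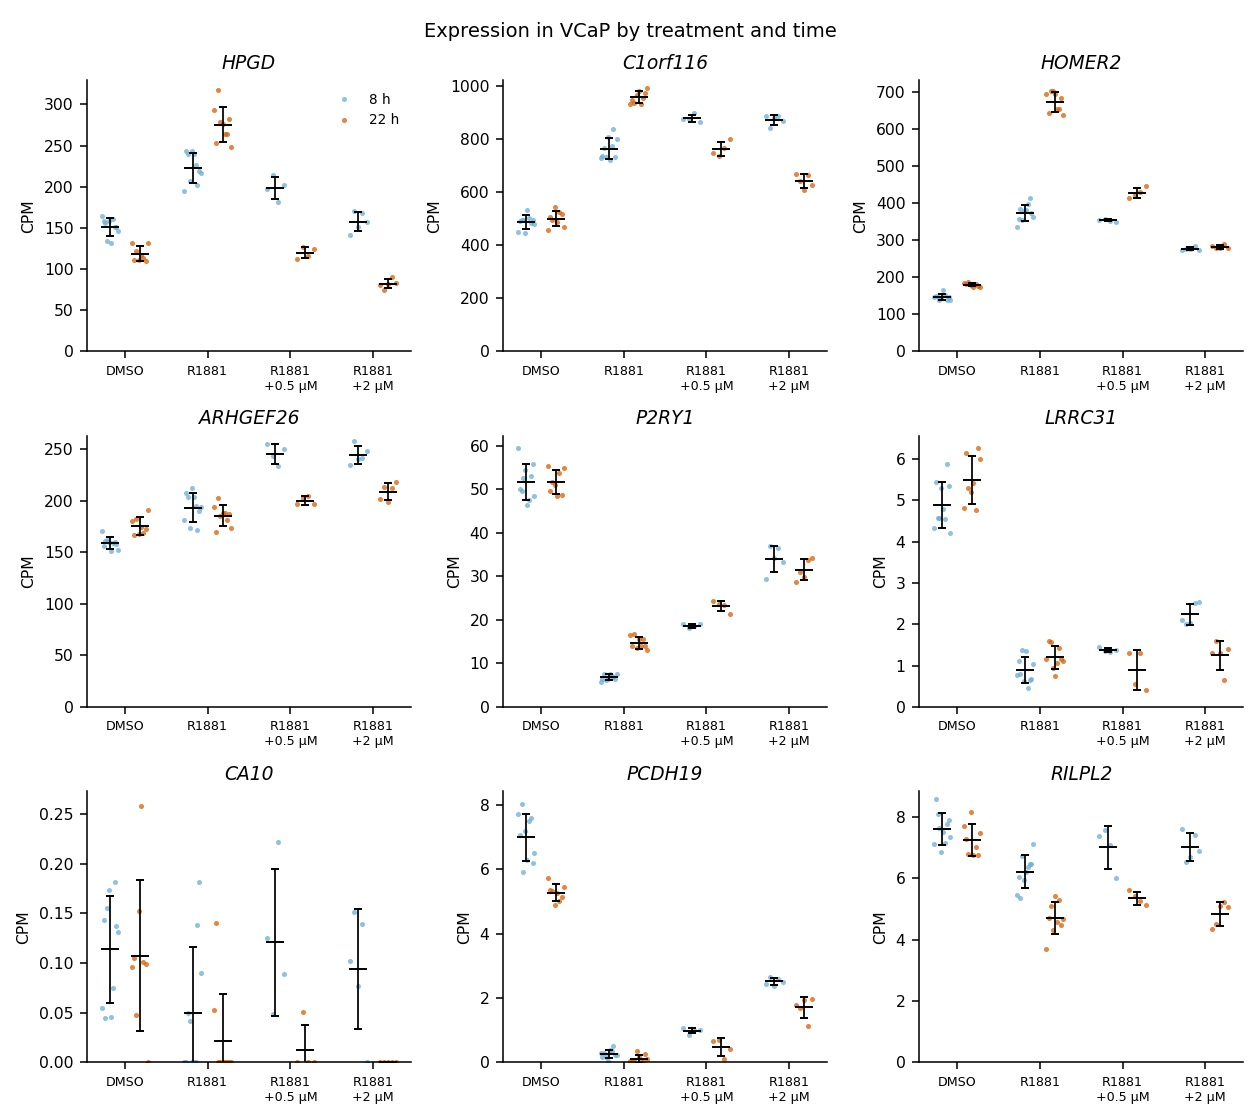
Expression of the 9 genes in VCaP in CPM, with 1 point per library and the mean ± SD of each group at 8 h and 22 h. P2RY1 has means of 51.7 CPM in DMSO and 14.8 CPM with R1881 at 22 h, and C1orf116 and ARHGEF26 lie higher with darolutamide than with R1881 alone at 8 h; each CA10 point rests on 5 reads or fewer.

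The R1881 effect in VCaP differed between 22 and 8 h for 6 of the 8 genes, beside 60.4% of all genes. It was more positive at 22 h by 0.66 for HPGD (SE 0.0686, adjusted p = 2.87e-12), by 0.56 for HOMER2 (SE 0.0411, adjusted p = 1.11e-17) and by 0.29 for C1orf116 (SE 0.0427, adjusted p = 6.32e-08). In LAPC4, without a test, the corresponding values were 1.23 (SE 0.0839), 0.74 (SE 0.0485) and 0.40 (SE 0.0344). For ARHGEF26 the value was -0.20 in VCaP (SE 0.0479, adjusted p = 0.000229) and 0.39 in LAPC4 (SE 0.0371). RILPL2 had -0.33 in VCaP (adjusted p = 0.00064), while LRRC31 (0.27, adjusted p = 0.276) and PCDH19 (-0.74, adjusted p = 0.0810) missed the threshold. With control replicates from 6 upward alone PCDH19 was called, at -1.41 (adjusted p = 0.0400).

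Time in DMSO changed 4 of the 8 genes in VCaP, beside 29.8% of all genes. HOMER2 rose by 0.29 (adjusted p = 7.19e-12) and ARHGEF26 by 0.14 (adjusted p = 0.000795), while HPGD fell by 0.35 (adjusted p = 8.32e-08) and PCDH19 by 0.41 (adjusted p = 0.00516). The ARHGEF26 call was lost with control replicates 1 to 5 (adjusted p = 0.102) and the PCDH19 call with those from 6 upward (adjusted p = 0.140).

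With 2 µM darolutamide at 22 h, 6 of the 8 genes differed from R1881 alone in VCaP, beside 66.9% of all genes. HPGD fell to 80.5, 74.2, 82.1, 89.98 and 83.2 CPM, by 1.75 (SE 0.0625, adjusted p = 8.94e-32). These libraries lay below the lowest DMSO library of 109.4 CPM, and the difference from DMSO was -0.53 (SE 0.06103, adjusted p = 6.5e-11; all genes called, 59%), so reversal was 143.5 ± 8.18%. HOMER2 fell to 284.5, 278.8, 277.6, 288.3 and 280.0 CPM, by 1.26 (SE 0.0361, adjusted p = 2.9e-36), still above every DMSO library, a reversal of 65.96 ± 1.19%. C1orf116 fell by 0.58 (SE 0.0368, adjusted p = 1.56e-20) to 641.6 ± 25.4 CPM, a reversal of 61.5 ± 6.12%. Of these 3 genes HPGD alone thus passed the DMSO level. ARHGEF26 rose by 0.17 (adjusted p = 0.000166).

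P2RY1 rose with 2 µM darolutamide in VCaP at 22 h, to 28.6, 30.96, 29.8, 33.8 and 34.1 CPM, by 1.09 over R1881 alone (SE 0.0612, adjusted p = 5.71e-23), a reversal of 60.4 ± 6.16%. PCDH19 rose to 1.800, 1.700, 1.94, 1.13 and 1.97 CPM, by 3.76 (SE 0.276, adjusted p = 5.14e-18), a reversal of 67.05 ± 6.36%. Its R1881 libraries held 0 to 7 reads, so this percentage depends on the prior count used for log2 CPM. The SD does not hold the spread of the R1881 libraries. In CPM, PCDH19 was at 1.71 with 2 µM against 5.27 in DMSO. For LRRC31 (0.07, SE 0.195, adjusted p = 0.768) and RILPL2 (0.05, SE 0.0743, adjusted p = 0.610) a change from R1881 was not detectable. LRRC31 then held 1.305, 1.58, 1.31, 0.653 and 1.41 CPM, or 15 to 40 reads a library. Against DMSO 8 of 8 genes differed at 22 h (all genes, 59%), with C1orf116, HOMER2 and ARHGEF26 higher and the other 5 lower. RILPL2, whose 2 µM group lay above DMSO in LAPC4, was lower than DMSO in VCaP by 0.58 (SE 0.07399, adjusted p = 1.57e-09).

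At 8 h in VCaP, C1orf116 and ARHGEF26 lay farther from DMSO with darolutamide than without. C1orf116 had from 721.4 to 837.2 CPM with R1881 (median 751.4, 763.3 ± 40.2), 873.4, 875.5, 896.8 and 863.0 CPM with 0.5 µM, and 886.7, 841.1, 878.7, 885.9 and 867.4 CPM with 2 µM. It rose over R1881 by 0.20 with 0.5 µM (SE 0.0378, adjusted p = 2.15e-05) and by 0.19 with 2 µM (SE 0.0351, adjusted p = 5.18e-06). Neither group overlapped R1881, in comparisons where 30.6% of all genes were called with 0.5 µM and 52.1% with 2 µM. ARHGEF26 had from 171.8 to 212.5 CPM with R1881 (median 194.6, 193.3 ± 14.2), 255.0, 243.4, 233.4 and 250.2 CPM with 0.5 µM, and 235.2, 257.8, 240.9, 241.9 and 248.6 CPM with 2 µM. It rose by 0.34 with 0.5 µM (SE 0.04198, adjusted p = 1.05e-09) and by 0.34 with 2 µM (SE 0.03896, adjusted p = 5.44e-11). The mean of ARHGEF26-AS1 was 1.35 CPM with R1881 alone and 2.59 and 3.94 CPM with the doses, and its part in the ARHGEF26 values was not tested. In LAPC4 at 8 h C1orf116 and ARHGEF26 were lower with either dose than with R1881, without overlap, as were 0.791% of all genes with 2 µM and 0.412% with 0.5 µM.

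The other VCaP genes moved towards DMSO with 2 µM at 8 h, where 8 of 8 differed from R1881, beside 52.1% of all genes. P2RY1 rose to 29.4, 36.9, 34.3, 36.4 and 33.2 CPM, by 2.33 (SE 0.0622, adjusted p = 1.79e-37), a reversal of 79.3 ± 4.49%, and PCDH19 rose by 3.17 (SE 0.212, adjusted p = 2.26e-19), a reversal of 66.9 ± 1.42%. PCDH19 held 1 to 11 reads a library with R1881 at 8 h, so its reversal there also depends on the prior count. LRRC31 rose by 1.33 (SE 0.1799, adjusted p = 6.18e-09). HPGD fell by 0.50 (SE 0.0577, adjusted p = 7.13e-11) and HOMER2 by 0.44 (SE 0.0344, adjusted p = 1.57e-16), with reversals of 89.4 ± 19.3% and 32.2 ± 1.58%. RILPL2 rose by 0.17 (adjusted p = 0.0291), a call lost in 4 of 14 alternatives with adjusted p from 0.0566 to 0.363. Against DMSO at 8 h 6 of 8 differed (all genes, 27.5%), with HPGD (0.06, adjusted p = 0.493) and RILPL2 (-0.11, adjusted p = 0.230) the exceptions.

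With 0.5 µM, 7 of the 8 genes differed from R1881 in VCaP at 22 h (all genes, 53%) and 6 at 8 h (30.6%). P2RY1 held 24.3, 23.6, 23.4 and 21.4 CPM at 22 h, up by 0.65 (SE 0.0674, adjusted p = 2.52e-12). HPGD held 112.4, 126.7, 116.1 and 124.5 CPM, down by 1.20 (SE 0.06603, adjusted p = 9.4e-23) and inside the DMSO range. ARHGEF26 (0.11, adjusted p = 0.0259) and RILPL2 (0.19, adjusted p = 0.0483) were called at 22 h but lost the call in 6 of 13 and 12 of 13 alternatives, with adjusted p from 0.0544 to 0.186 and from 0.0535 to 0.161. At 8 h the calls of HPGD (-0.16, adjusted p = 0.0345) and LRRC31 (0.63, adjusted p = 0.0205) were lost in 5 of 13 and 2 of 13 alternatives, with adjusted p from 0.0521 to 0.182 and from 0.0520 to 0.141.

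The doses differed for 5 of the 8 genes in VCaP at 22 h (all genes, 20.2%) and for 5 at 8 h (17.6%). At 22 h PCDH19 was higher at 2 µM by 1.85 (SE 0.268, adjusted p = 2.42e-07) and P2RY1 by 0.44 (SE 0.0737, adjusted p = 4.46e-06), while HOMER2 was lower by 0.60 (SE 0.0412, adjusted p = 7.45e-18), HPGD by 0.55 (SE 0.0704, adjusted p = 1.09e-08) and C1orf116 by 0.25 (SE 0.0432, adjusted p = 1.07e-05). At 8 h a dose difference was not detectable for C1orf116 (adjusted p = 0.941), ARHGEF26 (adjusted p = 0.979) or RILPL2 (adjusted p = 0.984).

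Other genes of the same pathways were followed in 7 lists of 109 genes, of which 71 were tested in LAPC4 and 69 in VCaP. The lists were chosen with earlier results of these data known. In LAPC4 with R1881 at 22 h, 8 rose and 11 fell, beside 13.3% of all genes called, with a median log2 difference of -0.02 beside 0.01 over all genes. At 8 h 1 rose and 3 fell (2.64%), and with 2 µM darolutamide against R1881 at 22 h 12 rose and 5 fell (10.5%). In VCaP 32 rose and 24 fell with R1881 at 22 h, beside 77.4% of all genes called.

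The prostaglandin list, around HPGD, had 2 of 13 genes up and 2 down in LAPC4 at 22 h. ABCC4, an exporter of prostaglandins and cyclic nucleotides, rose from 4.89 ± 0.274 to 9.95 ± 0.851 CPM (1.03, SE 0.06401, adjusted p = 1.54e-19) and was at 5.55 ± 0.465 CPM with 2 µM darolutamide. TBXAS1, thromboxane synthase, rose by 0.42 (adjusted p = 0.0225), from a low 1.65 to 2.21 CPM. The prostaglandin transporter SLCO2A1 fell by 0.51 (adjusted p = 0.0226), from a low 1.37 to 0.957 CPM. The prostaglandin reductase PTGR1 fell by 0.13 (adjusted p = 0.00378). With 2 µM against R1881, edgeR called TBXAS1 (-0.56, adjusted p = 0.00777). SLCO2A1 (0.21, adjusted p = 0.618) and PTGR1 (0.10, adjusted p = 0.0854) missed the threshold there. In VCaP ABCC4 rose by 2.31 (adjusted p = 4.85e-46), TBXAS1 by 2.37 (adjusted p = 2.07e-28) and SLCO2A1 by 0.45 (adjusted p = 0.00355), and PTGR1 differed by 0.05 (adjusted p = 0.0780) after a fall of 0.21 at 8 h (adjusted p = 4.75e-12).

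The list of non-clustered protocadherins around PCDH19 also held the cadherin CDH2. With R1881 in LAPC4 at 22 h it had 1 of 9 genes up and 5 down, with a median of -0.22. Of all genes, 13.3% were called in either direction. PCDH10 fell from 55.9 ± 2.54 to 35.4 ± 3.82 CPM (-0.66, SE 0.04999, adjusted p = 3.6e-16) and PCDH9 from 537.1 ± 34.4 to 390.6 ± 33.1 CPM (-0.46, SE 0.0481, adjusted p = 2.88e-11), and with 2 µM darolutamide they were at 57.5 ± 2.14 and 540.9 ± 50.3 CPM. PCDH11X, whose reads may be shared with a near-identical copy, fell by 0.40 (adjusted p = 2.55e-06), and PCDH17 rose by 0.18 (adjusted p = 0.0146). With 2 µM against R1881, 5 of the 9 rose and 0 fell, beside 10.5% of all genes called in either direction. Both contrasts share the R1881 libraries, so the second is not a separate observation. In VCaP 3 genes of the list passed the count filter.

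Of 10 purinergic genes around P2RY1, 1 changed in LAPC4 at 22 h. ENPP1, an ectoenzyme that cleaves extracellular ATP, rose by 0.27 (adjusted p = 5.9e-05) and fell in VCaP by 0.93 (adjusted p = 3.34e-15). Of 8 genes of the Homer scaffold, the inositol trisphosphate receptor ITPR3 rose by 0.22 (adjusted p = 0.0334), while its relatives ITPR1 and ITPR2 fell by 0.28 (adjusted p = 0.000783) and 0.20 (adjusted p = 0.0320). In VCaP ITPR3 rose by 2.13 (adjusted p = 9.43e-32), ITPR1 fell by 0.74 (adjusted p = 2.86e-29), and ITPR2 missed the threshold (adjusted p = 0.969). At 8 h in VCaP all 3 rose, ITPR3 by 1.40 (adjusted p = 2.12e-25), ITPR2 by 1.16 (adjusted p = 9.8e-30) and ITPR1 by 0.26 (adjusted p = 3.28e-12). The RhoG and Rac list around ARHGEF26 had 1 of 14 genes changed in LAPC4: the exchange factor VAV3 fell by 0.28 (adjusted p = 1.56e-09), and in VCaP it differed by 0.28 (adjusted p = 0.0576). Of 11 RILP and Rab genes around RILPL2, the kinase LRRK1 rose by 0.24 (adjusted p = 0.0120) at 22 h. In VCaP LRRK1 fell by 0.17 at 22 h (adjusted p = 0.0278) but rose by 1.11 at 8 h (adjusted p = 2.44e-23). Of 6 carbonic anhydrase genes around CA10, CA2 rose by 0.37 (adjusted p = 0.00677) and CA12 by 0.24 (adjusted p = 0.00041), while CA8, which like CA10 lacks enzyme activity, fell by 0.28 (adjusted p = 1.89e-07). In VCaP CA8 fell by 3.31 (adjusted p = 1.08e-42) and CA12 rose by 0.09 (adjusted p = 0.00662) at 22 h, while at 8 h CA12 fell by 0.32 (adjusted p = 2.26e-14).

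Over the 57 LAPC4 libraries, Pearson's r of log2 CPM between any pair of the 5 genes that were higher with R1881 ran from 0.891 for HPGD and P2RY1 to 0.978 for ARHGEF26 and P2RY1. PCDH19 ran against them, from -0.946 with HOMER2 to -0.884 with P2RY1, and LRRC31 and CA10 had 0.851 with each other. RILPL2 had 0.159 with HPGD. These libraries share 1 cell line and 8 treatment groups, so the values are descriptions without a test. Outside the list, the gene most like HPGD and also C1orf116 was ENDOD1 (0.975 and 0.975), that most like HOMER2 was PMEPA1 (0.978), like ARHGEF26 SERPINE2 (0.972) and like P2RY1 FKBP5 (0.952). For the others they were BDNF for PCDH19 (0.9103), PABPC5 for LRRC31 (0.922), PDGFC for CA10 (0.888) and GDF10 for RILPL2 (0.933).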

How the data were processed

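Total RNA of VCaP and LAPC4 cells was sequenced as poly-A libraries from a stranded kit, as single-end reads of 50 bases. The authors aligned the reads to GRCh38 (hg38) and counted them per gene, and the deposited values are raw counts of reads per gene symbol. The submitters' processing notes name bcl2fastq 2.17, STAR, Subread and featureCounts, and DESeq2. The annotation and the strand setting are not given in the sources used here. The members and the gene lists were chosen with earlier results of these data known.

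Counts were analysed in R 4.3.3 with edgeR 4.0.16 (TMM factors, quasi-likelihood test), with the 8 groups of a line in 1 fit and, for differences between lines, all 16 groups in 1 fit. A gene entered the test when 4 or more libraries of the fit held 10 or more reads, and the Benjamini-Hochberg threshold was 0.05 over all genes of a fit. CPM used the TMM factors of the line's own fit, or of the fit of both lines where lines are compared, and log2 CPM a prior count of 2. The SE of a log2 fold change is its size divided by the square root of F. CA10 did not pass the filter in VCaP. No library was left out, and no 2 libraries of a group agreed within counting noise. Groups do not overlap where the lowest library of one exceeds the highest of the other.

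All 9 genes are named. From each list of related genes, up to 3 called genes per direction with the largest log2 fold change in LAPC4 with R1881 at 22 h are named, and for each member the gene with the highest r over the LAPC4 libraries. The alternatives were DESeq2 1.42.0 and the size factors it estimates, testing without the low-count filter, filterByExpr, replicate number as a block, a GC slope, both of these, control replicates 1 to 5 or from 6 upward, only the groups compared, and leaving out each darolutamide replicate. Reversal was also recomputed on linear CPM. The fit was tested on simulated data.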

Additional observations from a re-analysis of the deposited data

Results flagged for a closer look

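In 2 of 136 groups of 4 to 10 libraries, 1 library lay far from the rest, where chance gives about 5 percent of groups. Both came from the same VCaP library, 2 µM darolutamide at 22 h replicate 4, which held 0.653 CPM of LRRC31 against 1.305, 1.58, 1.31, 0.653 and 1.41 CPM over all 5 libraries, and 1.13 CPM of PCDH19 against 1.800, 1.700, 1.94, 1.13 and 1.97 CPM.

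The R1881 effect in VCaP differed between the times by edgeR's test, by 0.66 for HPGD, 0.29 for C1orf116, 0.56 for HOMER2, -0.20 for ARHGEF26, 1.12 for P2RY1 and -0.33 for RILPL2 (log2, 22 h minus 8 h).

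In 13 gene contrasts the libraries of LAPC4 and VCaP moved in opposite directions without overlap in either line, of 80 for the 8 genes tested in both, beside 0.376% of all genes over the same 10 contrasts, several of which share libraries. The difference between the lines was not tested in any of them, because the LAPC4 values chose the genes. For the same reason the share of all genes is not a like background. Large LAPC4 moves, 1 part of the pattern, were how the genes were chosen. For P2RY1 the log2 fold change with R1881 was 1.36 in LAPC4 and -1.81 in VCaP at 22 h, and 1.03 and -2.93 at 8 h. With 2 µM darolutamide against R1881 it was -1.39 and 1.09 at 22 h, and -1.03 and 2.33 at 8 h, and with 0.5 µM -0.90 and 0.65 at 22 h, and -0.55 and 1.46 at 8 h. Between the doses P2RY1 had -0.49 and 0.44 at 22 h, and -0.48 and 0.87 at 8 h. These 8 contrasts are listed because the signs were opposite without overlap, so their signs are no further result. The contrasts of 2 µM against DMSO, also among the 10, are not listed for P2RY1.

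At 8 h, against R1881, ARHGEF26 had -0.58 in LAPC4 and 0.34 in VCaP with 2 µM, and -0.30 and 0.34 with 0.5 µM. C1orf116 had -1.21 and 0.19 with 2 µM, and -0.70 and 0.20 with 0.5 µM. RILPL2 with 2 µM against DMSO at 22 h had 0.26 in LAPC4 and -0.58 in VCaP.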

How the results depend on the processing

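Of the recomputed values of tested fold changes, 1400 kept their direction and side of the threshold, 44 lost the call, 6 gained it and 24 changed sign, all 24 among values that were not called. In LAPC4, without a test, 1501 values moved by less than the replicate spread and 11 by more, all with control replicates from 6 upward. The sign changes were LRRC31 in VCaP with 2 µM against R1881 at 22 h (-0.067 to 0.22 with a replicate left out, -0.067 without 2 µM replicate 2), P2RY1 in the VCaP DMSO time contrast (0.0028 with DESeq2, 0.072 with controls from 6 upward), PCDH19 in that of LAPC4 (-0.0089 with controls 1 to 5), and 3 genes between the doses in VCaP at 8 h. There C1orf116 had 0.0015 with DESeq2, 0.0041 without a filter, 0.0062 with only the groups compared and -0.011 to 0.016 with a replicate left out. ARHGEF26 had 0.0068, 0.0097 and 0.012, then 0.0075 with the GC slope, 0.0076 with block and slope, and -0.027 to 0.023 with a replicate left out, and RILPL2 -0.055 to 0.056 with a replicate left out. The cause was not tested. Reversal was recomputed on linear CPM, with control replicates 1 to 5, and without each darolutamide replicate. Of these percentages, 415 moved by less than the SD and 45 by more.

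With controls from 6 upward alone, which leave 2 DMSO libraries of LAPC4 at 22 h, the listed genes called for DMSO time in LAPC4 went from 6 to 3, and the related genes called with R1881 at 22 h from 19 to 9. The related genes called in LAPC4 with R1881 at 8 h went from 4 to 7 with the replicate block, 2 with controls 1 to 5, 2 with controls from 6 upward, 9 with the GC slope and 9 with both. Those called with 2 µM against R1881 at 22 h went from 17 to 27 with block and slope, and to 13 to 17 with a replicate left out. Leaving out a darolutamide replicate in VCaP gave 5 to 7 listed genes for 0.5 µM against R1881 at 22 h, 4 to 6 at 8 h and 7 to 8 for 2 µM at 8 h. LRRC31 gained the call for 0.5 µM against R1881 at 22 h without 0.5 µM replicate 1 or 3 (adjusted p = 0.0355 and 0.0318). The other calls gained were HOMER2 for 0.5 µM against R1881 at 8 h with controls from 6 upward and with the GC slope (adjusted p = 0.00721 and 0.0359), RILPL2 in that comparison without 0.5 µM replicate 4 (adjusted p = 0.0207), and PCDH19 for the time difference of the R1881 effect in VCaP with controls from 6 upward (-1.41, adjusted p = 0.0400).

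Replicate numbers did not pair the libraries on average. The mean correlation of deviations was -0.005 over 149 pairs in VCaP and 0.055 over 161 pairs in LAPC4. Single pairs ran from -0.501 to 0.455 in VCaP and from -0.573 to 0.597 in LAPC4. Such a mean cannot tell whether some of the groups were paired, and the block was used as an alternative only. Genes called over the whole LAPC4 table with R1881 at 22 h numbered 2418, but 813 with controls from 6 upward and 4081 with the GC slope. Below about 10 reads, as for PCDH19 with R1881 and CA10 in VCaP, depth limits the size that can be measured.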
